A study of Danio rerio with 18 samples.

Results

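The comparison described here sets the zebrafish stages whose ribosomal RNA was read as the late, somatic type against the stages read as the early, maternal type. The late side held 5 libraries: 3 came from the protruding-mouth stage and 2 from adult tail (trunk). The early side held 9 libraries, 3 each of unfertilized egg, 32-cell embryos and 12-somite embryos. The side of a stage followed from the rRNA type to which its libraries were mapped, per the file headers, and not from any score. These 14 samples came from a series of 18, whose other 4 are small-RNA samples that were not analysed here. The measured items were all 98 ribose methylation sites that the authors list in 18S, 28S and 5.8S rRNA.

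Ribose methylation places a methyl group on the 2'-oxygen of a nucleotide. In eukaryotic rRNA it is mostly made by box C/D small nucleolar ribonucleoproteins. In these a small RNA pairs with the rRNA around the target nucleotide and fibrillarin transfers the methyl group. Zebrafish carry separate maternal and somatic rRNA genes. The egg is loaded with ribosomes of the maternal type, and the somatic type takes over as the animal grows.

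No genotype, strain, treatment or age beyond the stage is given in the labels, and whole-cell RNA was used throughout. Replicates were biological, in triplicate and for adult tail in duplicate, per the study's design. In RiboMeth-seq the RNA is broken by alkali and the ends of fragments of 20 to 40 nt are counted at each position. A methylated nucleotide protects the neighbouring bond, so few fragments end there. The score is 1 minus the ends at a position over the weighted mean of its neighbours, with 1 for full methylation and 0 for none. Early and late rRNA type, developmental stage and tissue change together in this design, and their parts in any difference cannot be told apart. Adult tail is a tissue, whereas protruding-mouth larvae and the early stages are whole animals or eggs.

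The libraries held between 1494730 and 15358081 read ends, and in the third 12-somite library 10.4% of them fell on 10 positions. Libraries carried 1 of 7 barcodes. Late libraries used 3 barcodes, which the 12-somite libraries also used, whereas the 6 libraries of egg and 32-cell embryos carried other barcodes. Barcode and side were therefore crossed only between the late stages and 12-somite. The 2 adult libraries, called A and B because their numbers in the file do not match the sample titles, carried the barcodes of 12-somite libraries 2 and 3.

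The sequences around the sites on which the comparison turns are given as RNA, from 10 positions before the site to 10 after it, as the deposited early and late rRNA give them. The methylated nucleotide is in capitals. Site names are the authors' and follow human numbering, and positions count from 1 in the deposited early or late rRNA, which are not placed on a genome build here. Windows whose letters differ between the types are given for both, so that the change can be seen next to the scores.
28S-Cm3916, early, 28S positions 3187 to 3207: uagucuggccCugugaagaga
28S-Cm3916, late, 28S positions 3075 to 3095: uagucuggcaCugugaagaga
18S-Um287, early, 18S positions 324 to 344: ggccucgcuuUggugacucua
18S-Um287, late, 18S positions 287 to 307: ccggccgcuuUggugacucua
28S-Am4560, early, 28S positions 3850 to 3870: ugcaauaguaAucccgcucag
28S-Am4560, late, 28S positions 3699 to 3719: ugcaauaguaAuccugcucag
28S-Gm2817, both types: cuggcguguuGgaacaaggca
28S-Am1521, both types: aagauggugaAcuaugccugg
28S-Gm1303, both types: cacccgacccGucuugaaaca
28S-Um4468 in the A-loop, both types: agcguuggauUguucacccac

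Most sites had nearly the same score on both sides. The late mean minus the early mean lay under 0.05 in size at 80 of 98 sites, and at 7 sites it reached 0.1. Means of at least 0.75, taken here as full methylation, were found on both sides at 85 sites and on neither side at 8. At 4 sites only the late mean was full and at 1 site only the early mean. These counts use uncorrected scores. Sites full only in late stages included 18S-Cm462 and, named after its values were seen, 28S-Um3904. There the authors corrected low libraries of both sides for a barcode effect. As rebuilt, 12-somite 2 rose from 0.0868 to 1 at 18S-Cm462 and from 0.377 to 0.96 at 28S-Um3904. The counts were not redone on corrected scores. The difference was positive at 46 sites and negative at 52, with a median of -0.00057. Over whole libraries, the median score of the 98 sites averaged 0.938 ± 0.0115 in late libraries and 0.940 ± 0.00947 in early libraries (SD, n = 5 and 9). That difference of -0.00267 was within the spread between libraries (exact two-sided permutation test, p = 0.679), and its sign turned when egg library 1, protruding-mouth library 2 or protruding-mouth library 3 was left out (0.000102, 0.000293 and 0.00038).

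At 5 of 98 sites (5.1%) the late and early libraries differed with an adjusted p under 0.05, by limma's moderated test with Benjamini-Hochberg adjustment over the 98 sites. The score was higher in late stages at 3 of these (3.06%), 28S-Cm3916, 28S-Gm2817 and 28S-Am1521. It was lower in late stages at 2 (2.04%), 18S-Um287 and 28S-Gm1303. The late and early libraries did not overlap at 2 of 98 sites (2.04%), 28S-Cm3916 and 28S-Am1521. The 10 sites with an unadjusted p under 0.05 include these 5, and the lowest adjusted p among the others was 0.402. The exact two-sided permutation test over libraries called 0 sites (9 had an unadjusted p under 0.05), with an adjusted p of 0.0587 at each of the 5 sites. In the limma test the spread between stages of a side is part of the error. Both tests nevertheless count libraries of the same stage as independent replicates of their side. With stage as a random block limma called 1 site, and with a contrast of stage means 3.

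**Figure D1:**
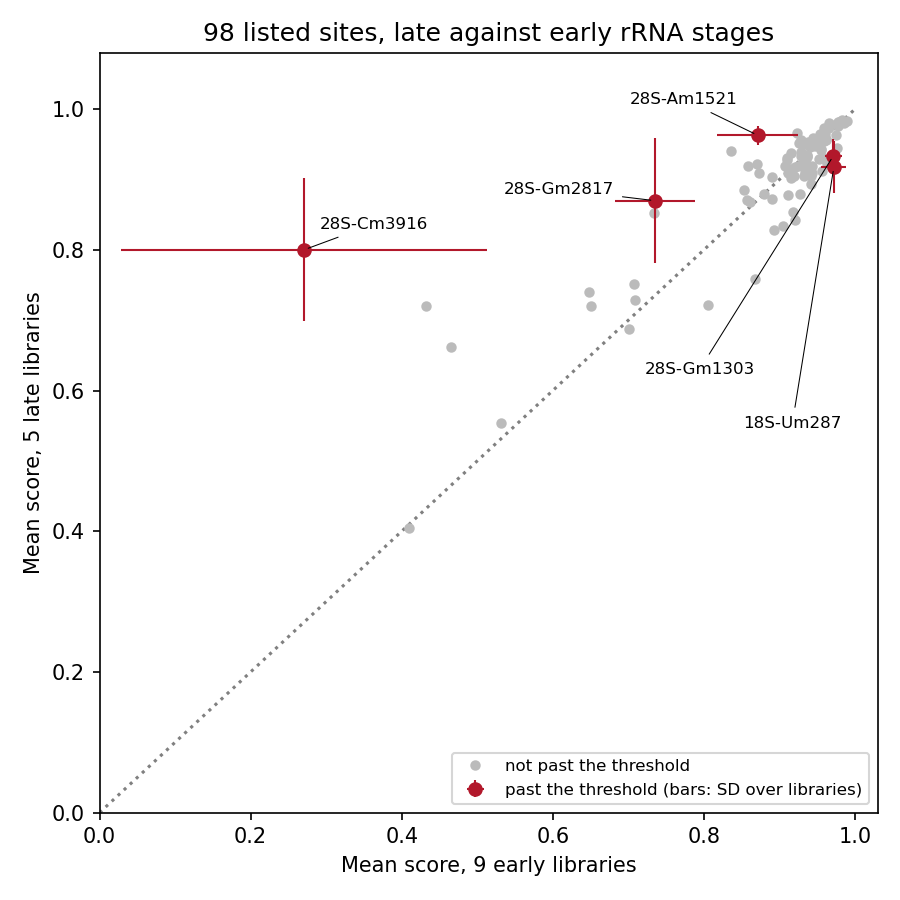
Mean score of each of the 98 sites in 5 late libraries (vertical axis) against 9 early libraries (horizontal axis), both from 0 to 1. Red points are the 5 sites past the threshold, with bars of 1 SD over libraries. Grey points are the other sites, and the dotted line marks equal scores. 28S-Cm3916 stands farthest from the line, and most sites crowd near 1 on both axes.

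The largest difference was at 28S-Cm3916, position 3085 of the late and 3197 of the early 28S rRNA. Protruding-mouth libraries scored 0.779, 0.757 and 0.663, and adult libraries A and B scored 0.898 and 0.904. Egg libraries scored 0, 0.0579 and 0, 32-cell libraries 0.226, 0.522 and 0.346, and 12-somite libraries 0.622, 0.528 and 0.138. Every late library was above every early library, and the egg libraries were the lowest of all. Scores were thus high in late libraries, near 0 in the egg, and intermediate and scattered in the 32-cell and 12-somite libraries.

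The mean at 28S-Cm3916 was 0.80 ± 0.102 in late libraries and 0.271 ± 0.242 in early libraries (SD, n = 5 and 9). The difference was 0.529 (SE 0.109, 95% interval 0.294 to 0.764, limma adjusted p = 0.0286). In read ends, adult library A had 50 ends at the site against a neighbour mean of 490, while egg library 1 had 3216 against 3122. The early and late rRNA differ directly 5′ of this site, at C3196A (the early letter, its position in early 28S, the late letter). That neighbour belongs to the score, and without it the difference was 0.525 (adjusted p = 0.0443). The part of the changed letter in the cleavage at the site itself was not tested.

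Within a barcode the late stages were compared with the 12-somite library of the same barcode, which leaves egg and 32-cell embryos out. In the barcode of 12-somite library 1 the late mean is protruding-mouth 1 alone. In the others it averages protruding-mouth 2 with adult A and protruding-mouth 3 with adult B. At 28S-Cm3916 the late mean minus the 12-somite value was 0.157, 0.30 and 0.646 in the barcodes of 12-somite libraries 1, 2 and 3. It was positive in all 3, which was fixed beforehand because every late library lay above every early one. All 3 barcodes had the direction of the pooled difference at 25 of 98 sites, this site among them. With barcode as a block the difference at 28S-Cm3916 was 0.387 (SE 0.147, limma adjusted p = 0.399). Without the egg it was 0.403 (adjusted p = 0.0538), and without adult tail 0.462 (adjusted p = 0.192). The call was also lost when any one of 6 libraries was left out. These were egg 2 (0.503), 32-cell 1 (0.524), 12-somite 3 (0.513), protruding-mouth 1 (0.535), adult A (0.505) and adult B (0.503), with adjusted p between 0.0582 and 0.118. From 5′ read ends alone, available for the 4 stages up to protruding-mouth, the difference was 0.478 (adjusted p = 0.0614).

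28S-Gm2817, at late position 2249 and early position 2265, was the site with the next largest called difference. Protruding-mouth libraries scored 0.812, 0.842 and 0.771, and adult libraries scored 0.976 and 0.949. The 9 early libraries ranged from 0.661 through a median of 0.742 to 0.808. The protruding-mouth values overlapped the upper early values, while both adult values lay above all others. Adult library A had only 4 read ends at the site against a neighbour mean of 166, and adult library B had 56 against 1102. Stage means were 0.777 ± 0.0334 in egg, 0.695 ± 0.0566 at 32-cell and 0.734 ± 0.0445 at 12-somite (SD, n = 3 each). They were 0.808 ± 0.0352 at protruding-mouth (n = 3) and 0.963 ± 0.0189 in adult tail (n = 2). Adult tail was the highest stage, and the means of the other 4 stages ran from 0.695 to 0.808.

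The late libraries averaged 0.87 ± 0.0886 at 28S-Gm2817 and the early libraries 0.735 ± 0.0534 (SD, n = 5 and 9), a difference of 0.135 (SE 0.0358, limma adjusted p = 0.0443). Without adult tail it was 0.0730 (adjusted p = 0.366), and with barcode as a block 0.129 (adjusted p = 0.41). The call was kept in 1 of 14 fits that left out a single library, the one without protruding-mouth 3 (0.159, adjusted p = 0.0223). Leaving out any of the other 13 gave differences of 0.108 to 0.149 and adjusted p of 0.0612 to 0.167. From 5′ read ends alone the difference was 0.0491 (adjusted p = 0.84).

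At 28S-Am1521, late position 1121 and early position 1132, the late side was higher at both of its stages. Protruding-mouth libraries scored 0.963, 0.943 and 0.98, and adult libraries scored 0.958 and 0.971. Early libraries ranged from 0.752 through a median of 0.90 to 0.913. The 5 late values lay together above all 9 early values. Read ends at the site ran from 11 in protruding-mouth library 3 to 1103 in 12-somite library 2. Stage means were 0.839 ± 0.0772 in egg, 0.891 ± 0.0356 at 32-cell, 0.884 ± 0.0433 at 12-somite (SD, n = 3 each), 0.962 ± 0.0183 at protruding-mouth (n = 3) and 0.965 ± 0.00951 in adult tail (n = 2).

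The late mean at 28S-Am1521 was 0.963 ± 0.0138 and the early mean 0.871 ± 0.0536 (SD, n = 5 and 9). The difference was 0.0917 (SE 0.024, limma adjusted p = 0.0443). Within barcodes it was 0.0588, 0.117 and 0.0632, positive in all 3. Every late library lay above every early one, so a positive sign in each barcode was fixed beforehand and is no further support. This site was 1 of the 25 of 98 sites where all 3 barcodes had the pooled direction. It was the only one of 98 sites (1.02%) called with barcode as a block (0.0815, SE 0.0133, adjusted p = 0.0376). Leaving out single libraries kept the call without egg 3 (0.0768, adjusted p = 0.0241) and without 12-somite 1 (0.0959, adjusted p = 0.0494). The other 12 such fits gave 0.087 to 0.0969 with adjusted p of 0.0581 to 0.167. The window around this site has the same letters in both rRNA types.

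**Figure D2:**
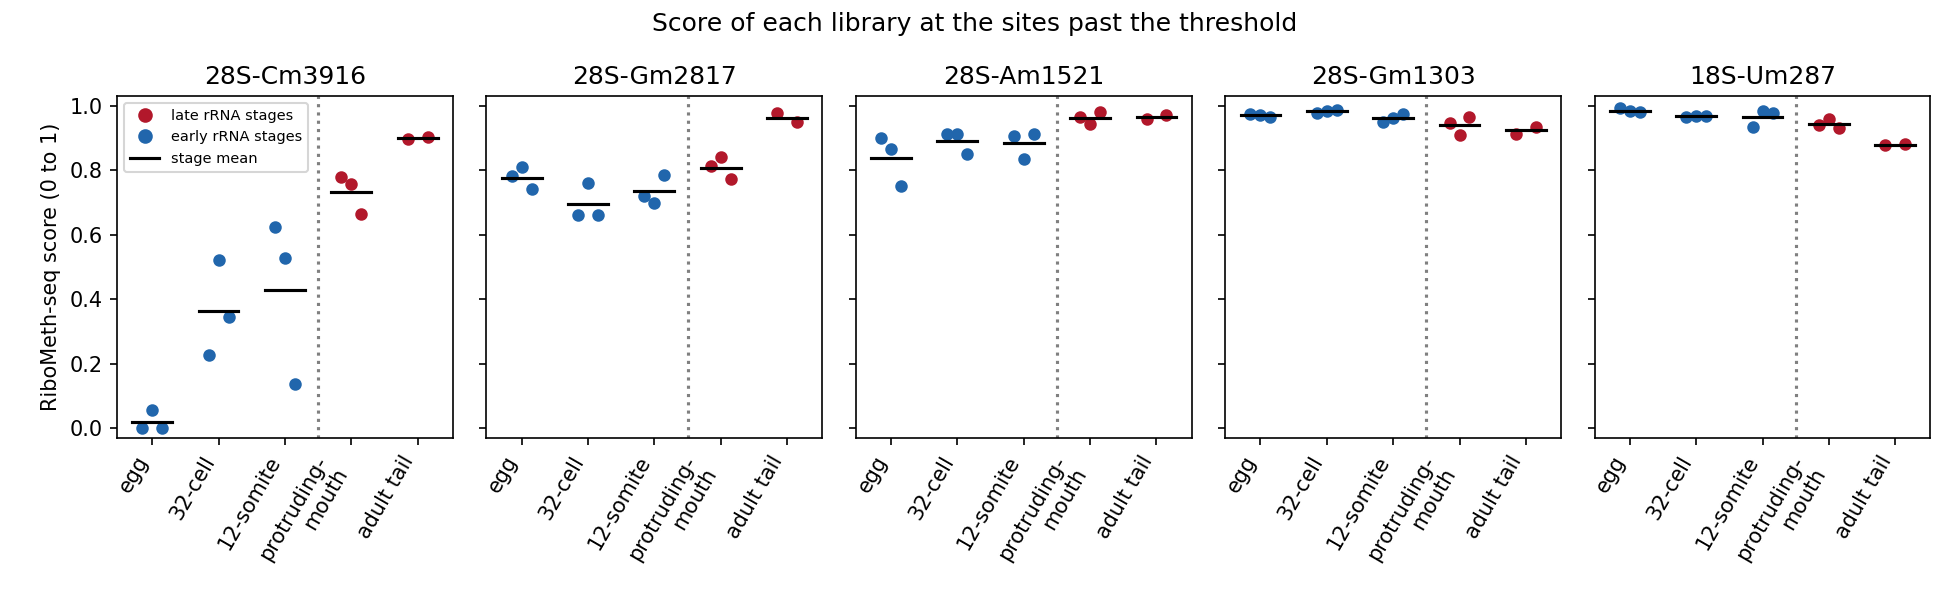
RiboMeth-seq score from 0 to 1 (vertical axis) of each of the 14 libraries at the 5 sites past the threshold, by stage from egg to adult tail. Red points are late and blue points early libraries, black bars are stage means, and the dotted line separates the sides. At 28S-Cm3916 the egg libraries lie near 0 and the adult libraries at 0.90, while at 18S-Um287 the adult libraries lie below all others.

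Both sites that were lower in late stages had high scores on each side. At 18S-Um287, late position 297 and early position 334, protruding-mouth libraries scored 0.939, 0.958 and 0.932, and adult libraries scored 0.877 and 0.88. Early libraries ranged from 0.934 through a median of 0.976 to 0.992. The adult libraries lay below every other library, and the protruding-mouth libraries overlapped the lowest early one. The means were 0.917 ± 0.0368 in late libraries and 0.972 ± 0.0167 in early libraries (SD, n = 5 and 9). The difference was -0.0548 (SE 0.0142, limma adjusted p = 0.0443), and without adult tail it was -0.029 (adjusted p = 0.339).

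Within barcodes, 18S-Um287 gave -0.0667 and -0.0698 in the barcodes of libraries 2 and 3, and 0.00507 in that of library 1. With barcode as a block the difference was -0.0483 (adjusted p = 0.463). The call was kept without 12-somite 1 (-0.0595, adjusted p = 0.0411) and without protruding-mouth 2 (-0.065, adjusted p = 0.0373), and lost in the other 12 fits without a library (-0.0602 to -0.0447, adjusted p 0.0612 to 0.167). Its window differs at 5 letters, all on the 5′ side, of which U328C is the nearest, 6 positions from the site. Leaving that position out of the score kept the call (adjusted p = 0.0443). Read ends at 18S-Um287 were few, with 5 in 12-somite library 3. Adult library A had 15 against a neighbour mean of 122.

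At 28S-Gm1303, late position 913 and early position 925, protruding-mouth libraries scored 0.946, 0.909 and 0.965, and adult libraries scored 0.913 and 0.935. Early libraries ranged from 0.95 through a median of 0.974 to 0.988. Only protruding-mouth library 3 reached into the early range. The means were 0.934 ± 0.0234 in late libraries and 0.972 ± 0.0115 in early libraries (SD, n = 5 and 9), a difference of -0.0378 (SE 0.00993, limma adjusted p = 0.0443).

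With barcode as a block the difference at 28S-Gm1303 was -0.0279 (adjusted p = 0.41), and within barcodes it was -0.00324, -0.0502 and -0.024. The call was kept without 12-somite 1 (-0.0405, adjusted p = 0.0453) and without protruding-mouth 3 (-0.0456, adjusted p = 0.0223). It was lost in the other 12 fits without a library (-0.041 to -0.0315, adjusted p 0.0612 to 0.167). Few ends fell at this site, from 2 in 12-somite library 3 to 56 in adult library B, and the neighbour mean of 12-somite library 3 was 77.6 ends.

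**Figure D3:**
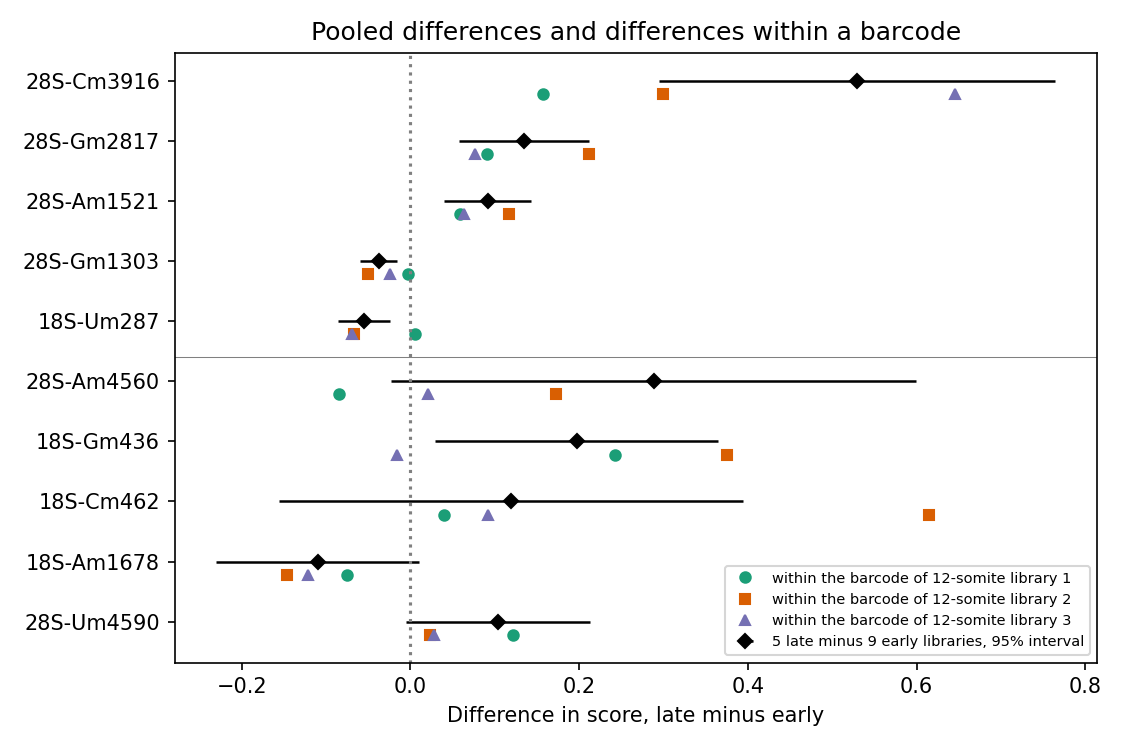
Difference in score, late minus early (horizontal axis), at the 5 sites past the threshold (above the line) and the 5 largest differences among the others (below it). Black diamonds give 5 late minus 9 early libraries with the 95% interval. Coloured marks give the late mean minus the 12-somite library within each of 3 barcodes. The late mean is protruding-mouth 1 alone in the first and includes an adult library in the others. The marks at 28S-Cm3916, 28S-Gm2817 and 28S-Am1521 are all above 0, and those at 28S-Am4560 lie on both sides of 0. At 28S-Cm3916 and 28S-Am1521 no late library overlaps an early one, so those signs were fixed beforehand. At 28S-Gm2817 protruding-mouth 3 (0.771) lay below 12-somite 3 (0.784), and adult B (0.949) raised the late mean of that barcode. All 3 barcodes had the direction of the pooled difference at 25 of the 98 sites.

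At 5 further sites the difference was at least 0.1 and did not pass the test, and libraries of one stage were often far apart. At 28S-Am4560, late position 3709 and early position 3860, protruding-mouth libraries scored 0.556, 0.382 and 0.869, and adult libraries scored 0.866 and 0.927. Early libraries ranged from 0 through a median of 0.439 to 0.877. The difference was 0.288 with a 95% interval of -0.0227 to 0.599 (limma adjusted p = 0.427). The sides overlapped widely, and within barcodes the difference was -0.0847, 0.172 and 0.0206. With barcode as a block it was 0.0471, without adult tail 0.171, and from 5′ read ends alone 0.0145. The late rRNA differs from the early at C3864U, 4 positions 3′ of this site.

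18S-Gm436 (late position 446, early 482) scored 0.701, 0.662 and 0.574 in protruding-mouth libraries and 0.899 and 0.476 in adult libraries, against 0.135 to 0.608 in early libraries (median 0.479). The difference was 0.197 (SE 0.0779, limma adjusted p = 0.402), and the sides overlapped. The authors corrected some stage means at this site for a barcode effect, and with those corrections rebuilt the difference was 0.246 (adjusted p = 0.0273). 18S-Am1678 scored 0.782, 0.903 and 0.773 in protruding-mouth and 0.661 and 0.675 in adult libraries, against 0.591 to 0.94 in early libraries (median 0.904), so its sides overlapped too. In the same corrected fit, 18S-Am1678 (late position 1697, early 1743) also passed, with -0.155 (adjusted p = 0.0273) against -0.11 uncorrected (SE 0.0558, adjusted p = 0.427). 28S-Gm3923, named here after its values were seen, passed in it as well, with 0.293 (adjusted p = 0.0273) against 0.0912 uncorrected (adjusted p = 0.848). The rebuilt corrections did not fall evenly on the sides. At 28S-Gm3923 they raised protruding-mouth 1 and 3 and adult B and no early library, at 18S-Am1678 they raised 32-cell 2 alone, to 1, and at 18S-Gm436 they raised adult B and egg 2. From 5′ read ends alone, used for every library of the 4 stages up to protruding-mouth, the differences were -0.0151 at 28S-Gm3923, -0.0051 at 18S-Am1678 and 0.0405 at 18S-Gm436 (adjusted p 0.84 to 0.926). The corrected scores called 8 of 98 sites (8.16%), the 5 described above among them.

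The remaining large differences belonged to 18S-Cm462 (late position 472, early 508) and 28S-Um4590 (late 3739, early 3890). 18S-Cm462 averaged 0.853 ± 0.139 in late libraries and 0.734 ± 0.279 in early libraries (SD, n = 5 and 9). Its early values ran from 0.0868 to 0.947, and the difference of 0.12 had a 95% interval of -0.156 to 0.395. The lowest early values, 0.0868 in 12-somite 2 and 0.506 in 32-cell 2, were among those the authors corrected. The difference was 0.0415 with corrected scores and 0.0387 without 12-somite 2. 28S-Um4590 averaged 0.94 ± 0.0217 in late libraries and 0.836 ± 0.116 in early libraries (SD, n = 5 and 9), with a difference of 0.104 (95% interval -0.0056 to 0.213, limma adjusted p = 0.427). Without 32-cell 1, which scored 0.553, the difference was 0.0683 (adjusted p = 0.196). The site has a letter change, G3886A, 4 positions 5′ of the site.

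By subunit, 0 sites were called higher and 1 called lower in late stages among 35 in 18S rRNA. The median difference over those 35 was -0.00411. Among 60 in 28S rRNA, 3 were called higher and 1 called lower, with a median difference over the 60 of 0.00305. By methylated base, the called sites were 1 of 29 A, 1 of 19 C, 2 of 28 G and 1 of 22 U. The share over all 98 sites was 5.1%.

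None of the 3 sites of 5.8S rRNA passed (unadjusted p under 0.05 at 0 of 3). 5.8S-Um8 scored 0.48, 0.388 and 0.791 in protruding-mouth and 0.974 and 0.978 in adult libraries, against 0.568 to 0.904 in early libraries. Both adult libraries lay above the early range, protruding-mouth libraries 1 and 2 lay below it and protruding-mouth library 3 within it. 5.8S-Um14 scored 0.416, 0.621 and 0.695 at protruding-mouth, 0.954 and 0.955 in adult tail and 0.537 to 0.817 in early libraries. Here too both adult libraries lay above the early range, and of the protruding-mouth libraries only library 1 lay below it. 5.8S-Gm75 averaged 0.909 ± 0.0519 in late and 0.912 ± 0.0375 in early libraries (SD, n = 5 and 9), a difference of -0.00234 (95% interval -0.0521 to 0.0475).

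The A-loop of 28S rRNA, found here by its motif UGUUCACCC on the rRNA strand, helps to hold the end of the incoming tRNA in the peptidyl transferase centre. Its adjacent pair of methylated nucleotides did not pass. 28S-Um4468 averaged 0.973 ± 0.00638 in late and 0.965 ± 0.0141 in early libraries (SD, n = 5 and 9), a difference of 0.00776 (95% interval -0.0095 to 0.025). 28S-Gm4469 averaged 0.879 ± 0.0904 in late and 0.912 ± 0.0456 in early libraries. Its difference of -0.0334 had a 95% interval of -0.107 to 0.0403, and adult libraries scored 0.742 and 0.864.

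Pooling assumes that the stages of a side resemble each other, which was examined with a model of stage means over the 14 libraries. Among the 3 early stages, limma's F test called none of the 98 (0 sites, 0.0%). An unadjusted p under 0.05 was found at 7, 28S-Cm3916 among them, with stage means of 0.0193 in egg, 0.364 at 32-cell and 0.429 at 12-somite (adjusted p = 0.367). On the late side, adult tail differed from protruding-mouth at 6 of 98 sites (6.12%), and 13 had an unadjusted p under 0.05. In the same model of stage means, the contrast between the sides called 3 of 98 sites.

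The 6 sites included 28S-Gm2817, with 0.963 in adult tail and 0.808 at protruding-mouth, and 18S-Um287, with 0.879 and 0.943 (adult minus protruding-mouth 0.154 and -0.0648, limma adjusted p = 0.0351 for both). The other 4, which are named after their values were seen, did not pass the test between the pooled sides. 5.8S-Um14 averaged 0.955 in adult tail and 0.577 at protruding-mouth, and 28S-Um4276 averaged 0.975 and 0.901. 28S-Cm3820 averaged 0.712 in adult tail and 0.916 at protruding-mouth, and 18S-Am1637 averaged 0.787 and 0.922. Their late minus early differences were 0.0198, -0.0284, -0.07 and 0.00631, with adjusted p of 0.498 to 0.969.

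Those calls rested on few libraries, since adult tail has 2. Without 32-cell 3, protruding-mouth 1, protruding-mouth 3, adult A or adult B, 0 sites differed between adult tail and protruding-mouth. Without egg 2 there was 1 site, and without protruding-mouth 2 there were 2. Where 1 adult library is left, it is assumed to vary like the other stages.

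Stage means offer a coarser view. At 22 of 98 sites (22.4%) both late stage means lay on one side of all 3 early stage means, above them at 12 sites (12.2%) and below them at 10 (10.2%). With 5 stage means in all, such an order is common even when stages are ranked at random. The share by itself is therefore no sign of a difference. All 5 called sites were among the 22, but the calls and the stage means come from the same scores. The counts above and below were close to each other, as were the positive and negative differences over all sites.

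Early and late rRNA were 93.4% identical over the aligned positions of 28S, 95.8% in 18S and 95.5% in 5.8S. A letter differed within 6 positions of 15 listed sites. Of these 15, 2 were called (13.3%), 28S-Cm3916 and 18S-Um287, and of the 83 sites without such a difference 3 were called (3.61%). Both shares rest on few called sites. In the fit of all 98 sites, limma's unadjusted p was under 0.05 at 2 of the 15 and at 8 of the 83. When only those 83 were tested, 0 passed by limma and 8 had an unadjusted p under 0.05. The median difference was 0.00631 at the 15 sites and -0.000598 at the 83.

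The same test was run on 5589 positions that both rRNA types share and that the authors do not list as methylated. It called 86 (1.54%), 36 higher and 50 lower in late stages, with 645 at an unadjusted p under 0.05. Among the 98 listed sites 10 had such an unadjusted p. The adjustment was made over the 5589 positions, so called shares of listed sites and unlisted positions rest on different p cutoffs. With a letter change within 6 positions 75 of 2558 were called (2.93%), and without one 11 of 3031 (0.363%). The called share was thus larger beside sequence changes, at positions where no methylation is listed. Positions within 6 of each other enter each other's scores, and a single letter change can lie near several positions. The called positions are therefore not separate observations. The total fell to 54 without 32-cell 2, 57 without 32-cell 3, 55 without 12-somite 2, 54 without protruding-mouth 2, 55 without adult A and 53 without adult B. The median score over unlisted positions was 0.0788 ± 0.0357 in late and 0.108 ± 0.0441 in early libraries (SD, n = 5 and 9, exact two-sided permutation p = 0.219).

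**Figure D4:**
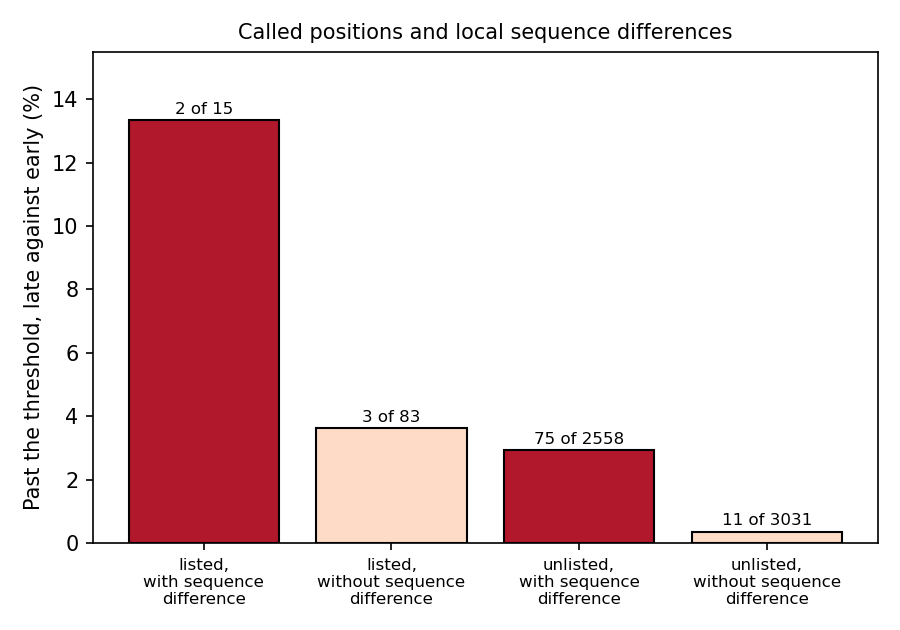
Share of positions past the threshold for late against early (vertical axis, percent, starting at 0), for listed sites and unlisted positions with and without a letter change between early and late rRNA within 6 positions. Dark bars have a change and pale bars have none, with called and tested numbers above each bar. The share is 13.3% and 3.61% for listed sites and 2.93% and 0.363% for unlisted positions. The adjustment was made separately over 98 sites and 5589 positions, so listed and unlisted bars rest on different p cutoffs. At an unadjusted limma p under 0.05 there were 10 of 98 listed sites and 645 of 5589 unlisted positions. Nearby positions share read ends, so the counts are not of separate observations.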

How the data were processed

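The submitters' processing notes name cutadapt 2.0 and Bowtie2 2.3.4.1. The deposited stage sheets hold the count of 5′ and 3′ read ends at each rRNA position, not normalized, and the authors' RiboMeth-seq value as a fraction from 0 to 1. The authors' overview gives this score as a mean per stage, partly barcode-corrected, per the file headers. Scores were recomputed from the counts with 6 neighbours on each side (weights 1 to 0.5, values below 0 set to 0), and differed from the deposited values by at most 4.97e-13. Adult scores come from the 2 columns of 5′ and 3′ ends together, and 10 other adult columns were not used. The 25 corrected means at 11 sites were rebuilt as an alternative, so which libraries were corrected is inferred. Biopython 1.88 aligned the early with the late rRNA.

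Sites needed a mean of 10 read ends over their neighbours, and all 98 passed (lowest 32.25). Late minus early was tested on untransformed scores with limma 3.58.1 in R 4.3.3, with Benjamini-Hochberg adjustment and a threshold of 0.05, after tests on simulated data. Tables, the permutation tests of library values and figures used scipy 1.17.1, pandas 2.3.3, numpy 2.4.6 and matplotlib 3.10.9 in Python 3.11.15. Scores are ratios of PCR-amplified read ends, so no binomial interval is given. The alternatives were other error models, scales, scores, coverage minimums, blocks and left-out stages or libraries. Named were the called sites, sites whose sides do not overlap, the 5 largest other differences, the A-loop pair and the 5.8S sites. Members, lists and tests were chosen with earlier results of these data known. To see whether replicate numbers pair, each library's deviations from its stage mean were correlated over sites, not the scores themselves. In these deviations, same-numbered protruding-mouth and early libraries correlated over 0.1 in 6 of 9 pairs (-0.575 to 0.588). Deviations within a stage cancel out at each site, so the pairs are not independent. The same-numbered pairs with egg libraries were negative (-0.575, -0.101 and -0.112), and those with 32-cell libraries positive (0.199, 0.401 and 0.232). Those with 12-somite libraries also share a barcode and correlated by 0.45 to 0.588, so number and barcode are not separate there. Pairs sharing neither number nor barcode ran from -0.428 (protruding-mouth 2 with 12-somite 1) to 0.637 (protruding-mouth 1 with egg 3). The main fit did not pair libraries, and blocks by number and by barcode were alternatives.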

Additional observations from a re-analysis of the deposited data

Results flagged for a closer look

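In 8 of 38 groups of 5 or 9 libraries examined, 1 library stood apart from the rest by Dixon's test. Chance alone does so in about 1 group in 20 when groups are independent and hold values of like kind. The groups here reuse the same libraries, pool stages and include sites named for large differences. Their number can therefore not be set against that rate. At 28S-Am1521, egg library 3 was the lowest early library with a score of 0.752, against 0.834 in the next. At 18S-Um287, 12-somite library 1 was the lowest early library with 0.934, against 0.964 in the next. At 18S-Gm436, egg library 2 had 0.135, with the next early library at 0.405. At 18S-Am1678, 32-cell library 2 had 0.591, with the next at 0.845. At 28S-Um4590, 32-cell library 1 had 0.553, with the next at 0.783. The median score over the 98 sites was 0.963 in egg library 1 and at most 0.942 in the other early libraries. The share of read ends on the 10 most frequent positions was 3.11% in protruding-mouth library 3, with at most 1.53% in the other late libraries. It was 10.4% in 12-somite library 3, with at most 2.26% in the other early libraries.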

How the results depend on the processing

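The number of called sites moved with most settings around the 5 of the fit described above, while the differences at the 5 sites kept their sign in every alternative that tested them (38 or 39 each). A stage-means contrast called 3, limma with trend and robust on 3, the logit of the score 3, 2 neighbours on each side 3, 5′ read ends alone 3 (none of them among the 5) and a minimum difference of 0.1 2. Stage as a random block called 1, libraries centred on their median 1 and barcode as a block 1. The exact permutation test, the 83 sites without a sequence difference and the replicate number as a block in 4 stages called 0, while barcode-corrected scores called 8. Leaving out a stage called 0 without egg, 0 without 32-cell, 1 without 12-somite, 4 without protruding-mouth and 0 without adult tail. Leaving out single libraries gave 0 to 5. Among settings added after seeing the data, barcode-corrected scores with barcode as a block called 1 and the libraries whose barcode is on both sides called 0. The calls at 28S-Cm3916 held in 22 of 38 alternatives, at 28S-Am1521 in 13 of 39, at 18S-Um287 in 12 of 38, at 28S-Gm1303 in 10 of 39 and at 28S-Gm2817 in 9 of 39. These alternatives reuse the same libraries, so neither the counts nor the kept signs are independent support.

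The replicate number as a block could be fitted in the 4 stages whose columns carry numbers, and its count of 0 equals that without adult tail and without the block. In their deviations from stage means, same-numbered libraries correlated over 0.1 in 6 of 9 pairs. The pairs that also share a barcode, at 0.45 to 0.588, are among those 6. Pairs sharing neither number nor barcode ran from -0.428 to 0.637. Among the early stages the logit called 1 site, and leaving out single libraries 0 to 1. Between adult tail and protruding-mouth, leaving out single libraries gave 0 to 7. Of unlisted positions, 4 were called when only those without a sequence difference were tested, and 53 to 90 without single libraries. The library median moved between -0.00601 and 0.00038 without single libraries.

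Of the 15 sites named by rule, 4, none of them past the threshold, had differences of the other sign in some settings. 28S-Gm4469 gave 0.00279 from 5′ ends and 0.0173 without adult tail, as with the replicate block, and -0.0598 to 0.000881 without single libraries. 5.8S-Um8 gave 0.0984 on the logit scale, with and without barcode correction, 0.171 without protruding-mouth, and -0.147 to 0.000492 without single libraries. 5.8S-Um14 gave -0.0742 in a quasi-binomial model, -5.37e-06 with 2 neighbours, -0.139 from 5′ ends, -0.0197 with barcode as a block, corrected or not, -0.131 without adult tail, as with the replicate block, -0.0114 without egg, and -0.0369 to 0.098 without single libraries. 5.8S-Gm75 gave 0.0166 on the logit scale, corrected or not, 0.00337 with 2 neighbours, 0.0388 from 5′ ends, 0.000321 after centring, 0.032 with barcode as a block, corrected or not, 0.0112 without egg, 0.0090 without protruding-mouth, 0.0239 with shared barcodes, and -0.0155 to 0.0183 without single libraries. Scores from 5′ ends also leave out adult tail, so their differences are not from the same libraries as the main fit. The cause of these changes was not tested.

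Limits remain. Side, stage and tissue cannot be told apart, and 6 early libraries carry barcodes that no late library has. Adult tail has 2 libraries. Depth was lowest in adult library A, with 1494730 read ends.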

Other observations

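Some positions that the authors do not list as methylated had scores that differed between the sides with no letter change within 6 positions. There were 11 such positions of 3031 (0.363%), 5 higher and 6 lower in late stages, with the adjustment made over all unlisted positions. When only the 3031 were tested, 4 were called, 1 higher and 3 lower. Positions named here were chosen after their values were seen. The largest such difference was at a C in 28S, late position 1026 and early position 1036, whose window reads the following in early rRNA, with this C in capitals.
28S early position 1036: gugggaucccCccgccccggc
Protruding-mouth libraries scored 0.169, 0.359 and 0.109 there and both adult libraries 0, while early libraries ran from 0.499 to 0.844. The late mean was 0.127 ± 0.148 and the early mean 0.659 ± 0.121 (SD, n = 5 and 9), a difference of -0.531 (limma adjusted p = 0.0023 over all unlisted positions). The sides did not overlap, and the nearest letter change is 12 positions away. In 18S, 4 of the 11 positions lie so close together that each enters the score of another, so they are not separate observations, and 2 of them were higher and 2 lower in late stages. At a C at late position 770 and early position 809, late libraries scored 0.0348 to 0.75 and every early library 0, a difference of 0.464 (limma adjusted p = 0.0188). Scores below 0 are set to 0, so the SD of 0 in these early libraries does not measure their spread. At a C at late position 769 and early position 808, the late mean was 0.634 ± 0.203 and the early mean 0.174 ± 0.128 (SD, n = 5 and 9), a difference of 0.46 (limma adjusted p = 0.0184). At an A at late position 774 and early position 813, the late mean was 0.022 ± 0.0493 and the early mean 0.481 ± 0.223 (SD, n = 5 and 9), a difference of -0.459 (limma adjusted p = 0.0393). At a G at late position 765 and early position 804, the late mean was 0.128 ± 0.119 and the early mean 0.503 ± 0.116 (SD, n = 5 and 9), a difference of -0.375 (limma adjusted p = 0.0103). At an A in 18S, late position 1211 and early position 1256, the late mean was 0.0983 ± 0.0616 and the early mean 0.284 ± 0.0482 (SD, n = 5 and 9), with a nearest letter change 29 positions away. Whether these positions are methylated was not tested.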
